A study of Mus musculus with 7 samples.

Results

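GABA is the main inhibitory transmitter of the brain, and a set of 8 genes that make it, load it, take it up, break it down and set its chloride gradient was followed here across 7 samples of ERα-ZsGreen neurons. The 8 genes were chosen by symbol: Gad1, Gad2, Slc32a1, Slc6a11, Abat, Aldh5a1, Slc12a5 and Slc12a2, out of 24062 gene symbols in the count files. All 8 were found and all 8 passed the filter on low counts. The study asked how transcripts of preoptic neurons that answer warming differ from those of neurons that do not. Neurons came from slices of the medial preoptic area (MPA) of female Esr1-ZsGreen transgenic mice aged 10 to 14 weeks, in which a green fluorescent protein marks cells that express estrogen receptor alpha. All neurons, in both groups, were ZsGreen positive and were warmed by 5 °C, from 25 °C to 30 °C, during whole-cell recording before their contents were drawn into the pipette. Temperature-responsive (TR) samples numbered 4 and non-responsive (NR) samples 3, and each pooled 2 neurons of like response. The labels do not say whether samples came from separate mice, so p-values measure the spread between these samples only.

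GABA is made from glutamate by the decarboxylases encoded by Gad1 and Gad2, packed into vesicles by the product of Slc32a1, and cleared by membrane transporters such as that of Slc6a11. Its breakdown in mitochondria runs through the transaminase encoded by Abat and the aldehyde dehydrogenase encoded by Aldh5a1. Whether GABA receptor channels inhibit or excite a neuron depends on internal chloride, which the cotransporter encoded by Slc12a5 (KCC2) carries out and that of Slc12a2 (NKCC1) carries in. In the preoptic area a large share of neurons use GABA.

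Totals lay between 1914497 and 2814360 counts in TR and between 3309361 and 5125280 in NR samples, whereas TR samples had more genes detected (19852 to 21177, against 17818 to 19820). Both quantities separated the groups. Esr1 had 10 to 27 counts per sample. The methods name female mice, but the Y-linked gene Ddx3y had 684 to 1150 counts in each sample and Xist had 2 to 14, which goes against that description. Scaled for library size, Ddx3y was higher in every TR sample than in any NR sample, as were 17.2% of all genes tested. Its log2 fold change was 0.66 (adjusted p = 0.000196, edgeR). Markers of other cells were present in every sample. The summed level of 5 astrocyte markers was 1090 to 1270 CPM (counts scaled for library size) in TR and 882 to 1075 in NR samples, and that of 5 oligodendrocyte markers 2776 to 3785 and 2302 to 2946. For 5 microglia markers the sums were 273 to 308 and 307 to 326 CPM, and for 4 choroid plexus markers 294 to 375 and 242 to 323. The 4 endothelial markers summed to 72.9 to 203 CPM in TR and 12.1 to 51.0 CPM in NR samples, and 3 precursor markers of oligodendrocytes to 103 to 116 and 96.3 to 106 CPM. The 5 neuronal markers summed to 2395 to 2819 and 2205 to 2498 CPM, and no marker of any list was at 0 in a sample. The neuronal markers did not move one way. At an adjusted p under 0.05 (edgeR), Snap25 was higher in TR samples, and Rbfox3 and Tubb3 were lower. Their log2 fold changes were 0.50, -0.38 and -0.24, and Syt1 and Map2 did not pass. Because each sample is a pool, fewer cells of a type and less RNA per cell cannot be told apart.

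Start regions are shown for the pair of decarboxylases, which differed in whether they passed the test, and for Slc12a5, whose counts add up transcripts from separate starts. RefSeq start windows of 300 bases (GRCm38.p6, the assembly of mm10) were matched for 6 of the 8 genes by symbol. For these starts, the stretch of the window outside all GENCODE exons is printed 5′ to 3′ on the plus strand. Capitals mark matches, on either strand, to the motifs searched. These were the TATA box letters TATAAA, the CCAAT box, the GC box letters GGGCGG, the E-box letters CACGTG and the cAMP response element letters TGACGTCA.
Gad1, chr2:70561879-70562041: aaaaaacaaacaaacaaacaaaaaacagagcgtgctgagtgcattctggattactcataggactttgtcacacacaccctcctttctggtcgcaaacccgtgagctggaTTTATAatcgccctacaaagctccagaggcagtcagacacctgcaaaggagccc
Gad2, chr2:22622077-22622204: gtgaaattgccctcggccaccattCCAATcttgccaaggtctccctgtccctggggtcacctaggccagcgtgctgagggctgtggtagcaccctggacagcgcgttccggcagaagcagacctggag
Slc12a5, first start, chr2:164960596-164960801: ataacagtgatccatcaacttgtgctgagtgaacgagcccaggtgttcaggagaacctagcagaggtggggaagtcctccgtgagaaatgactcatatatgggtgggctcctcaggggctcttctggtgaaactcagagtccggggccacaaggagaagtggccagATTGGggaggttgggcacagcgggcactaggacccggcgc
Slc12a5, second start, chr2:164967738-164967982: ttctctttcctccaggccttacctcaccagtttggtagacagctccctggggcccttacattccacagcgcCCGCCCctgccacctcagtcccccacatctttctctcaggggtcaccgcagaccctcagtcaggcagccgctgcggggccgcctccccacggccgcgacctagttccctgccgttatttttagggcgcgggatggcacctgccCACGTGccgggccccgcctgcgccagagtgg

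The printed Gad1 stretch held a TATAAA match, as did 13.6% of all 32851 windows, and that of Gad2 a CCAAT match, as did 37.4%. The first Slc12a5 stretch held CCAAT, and the second held GGGCGG (35.7% of windows) and CACGTG (7.15%). TGACGTCA was in none of the printed stretches and in 1.79% of windows. These shares are for whole windows of 300 bases, which are longer than the printed stretches of 128 to 245 bases. The full windows were 61.3% G and C for Gad2 and 63.7% and 68.3% for the starts of Slc12a5, against a median of 52.7% over all windows, which that of Gad1 also exceeded. Counts per gene do not separate the Slc12a5 starts. The Gad1 window lies inside the gene, which begins at 70553072 in GENCODE, so counts of Gad1 may also add up other starts.

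Gad1, Abat, Slc12a5 and Slc12a2 were higher in TR than in NR samples, by 1.27 to 1.40-fold, and the other 4 genes did not pass the test. Thus 4 of 8 genes were called higher and 0 lower at an adjusted p of 0.05 (edgeR quasi-likelihood test), where 15.1% of the 14407 genes tested were called higher and 14.9% lower. The median log2 fold change was 0.33 over the 8 genes and 0.0071 over all genes tested. For Gad1, Gad2, Abat and Slc12a5 every TR sample exceeded every NR sample in CPM, which held for 17.2% of all genes tested. Without TR replicate 1, Gad1, Abat and Slc12a5 still passed and Slc12a2 did not, with 13.7% of all genes called higher. The count was also 3 without NR replicate 1 (16.4% of all genes higher) and with the GC content offset (9.23%). It was 5 without TR replicate 3 (13.6%) or TR replicate 4 (13.8%), with upper quartile normalization (18.3%) and with the replicate block (14.3%). It was 2 without TR replicate 2 (10.9%) or NR replicate 2 (10.7%) and when all genes of at least 1 count were kept (11.5%). Without NR replicate 3 edgeR called 0 of 8, while 9.47% of all genes were called higher, and 4 of the 8 and 32.9% of all genes passed at an unadjusted p of 0.05. A covariate for genes detected also left 0 of 8, with 0.00694% of all genes called higher, and 4 of the 8 and 14.3% of all genes passed at an unadjusted p of 0.05.

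**Figure D1:**
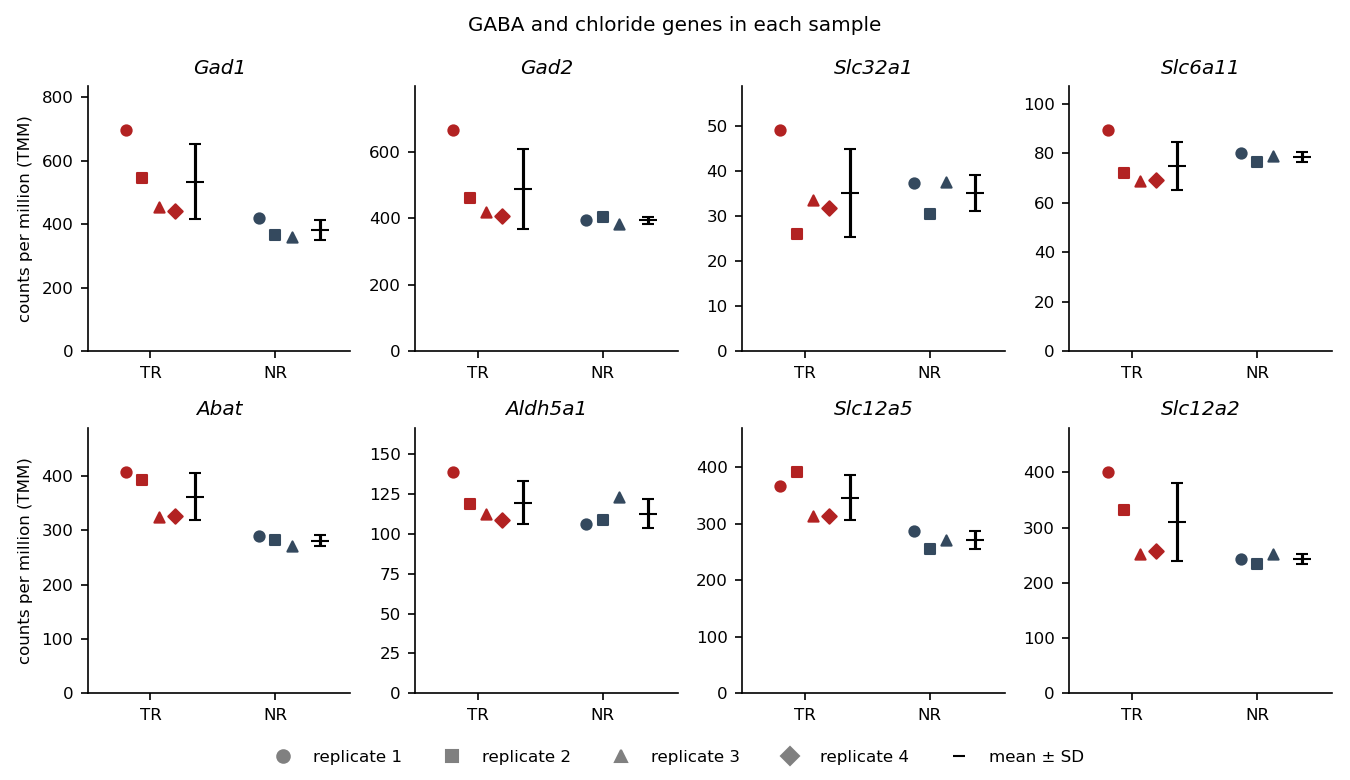
Levels of the 8 genes in each sample, as TMM-scaled CPM (vertical axis, from 0) in temperature-responsive (TR, red) and non-responsive (NR, dark) samples; symbols give the replicate number, and bars are mean ± SD (n = 4 and 3). TR replicate 1 is the highest sample for 7 of the 8 genes, and TR and NR samples are fully apart for Gad1, Gad2, Abat and Slc12a5.

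Gad1 encodes GAD67, the decarboxylase that makes most of the GABA in neurons, and spans mm10 chromosome 2, 70553072 to 70602014. Its level was 695, 544, 454 and 441 CPM in TR replicates 1 to 4 and 419, 366 and 360 CPM in NR replicates 1 to 3, from 1003 to 1930 counts. All TR samples lay above all NR samples, and TR replicates 3 and 4 were close to NR replicate 1. The rise was 1.40-fold, or 0.48 ± 0.13 (standard error) on the log2 scale, at an adjusted p of 0.00766. It was 0.32 without TR replicate 1 (adjusted p = 0.0209) and 0.44 without NR replicate 3, which ended the call (adjusted p = 0.0505).

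Gad2 encodes GAD65, the decarboxylase found mainly at nerve terminals (chromosome 2, 22622205 to 22693874). TR samples had 664, 461, 420 and 406 CPM and NR samples 393, 404 and 383 CPM. The lowest TR sample was barely above the highest NR sample, and the TR values spread far more than those of NR, with coefficients of variation of 24.6% and 2.61%. Its log2 difference of 0.31 ± 0.13 (standard error) missed the threshold (adjusted p = 0.0836) and was 0.12 without TR replicate 1 and 0.13 with the GC content offset (adjusted p = 0.487). Upper quartile normalization put it past the threshold at 0.37 (adjusted p = 0.0324), as did leaving out TR replicate 3 (0.38, adjusted p = 0.0477) or TR replicate 4 (0.39, adjusted p = 0.0294).

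The ratio of Gad1 to Gad2 counts, which needs no scaling between libraries, was 1.05, 1.18, 1.08 and 1.09 in TR and 1.06, 0.905 and 0.938 in NR samples. The groups overlapped through NR replicate 1. Means were 1.10 ± 0.057 (SD, n = 4) and 0.969 ± 0.084 (SD, n = 3), described here without a test.

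Slc32a1 encodes the vesicular GABA transporter VGAT (chromosome 2, 158610767 to 158615748). It had 49.1, 26.0, 33.6 and 31.9 CPM in TR samples and 37.4, 30.5 and 37.7 CPM in NR samples, from only 48 to 187 counts. TR replicate 1 was the highest and TR replicate 2 the lowest of all samples, and the groups overlapped. The log2 difference was 0.0029 ± 0.18 (standard error) at an adjusted p of 0.992, and it was -0.19 without TR replicate 1 (adjusted p = 0.434). With the GC content offset it was 0.22 and did not pass. On the opposite strand, Gm14205 covers 24.9% of its exon bases and without strand the reads of both cannot be told apart.

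Slc6a11 encodes GAT3, a GABA transporter known mainly from astrocytes (chromosome 6, 114131241 to 114249952). Its level was 89.4, 72.1, 68.7 and 69.4 CPM in TR and 80.3, 76.6 and 78.8 CPM in NR samples. TR replicate 1 was the highest of all samples while the other TR samples lay below every NR sample. TR minus NR was -0.07 ± 0.12 (standard error) on the log2 scale at an adjusted p of 0.683, and -0.17 without TR replicate 1 (adjusted p = 0.305). Astrocyte markers did not move one way beside it: Gja1 and Slc1a3 were called higher in TR samples and Gfap lower, at log2 fold changes of 0.63, 0.45 and -1.01, and their part in the values of Slc6a11 was not tested.

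Abat encodes GABA transaminase, which turns GABA into succinic semialdehyde (chromosome 16, 8513429 to 8621568). TR samples had 407, 392, 324 and 326 CPM and NR samples 290, 282 and 271 CPM. The groups did not overlap, with TR replicates 1 and 2 well above TR replicates 3 and 4. Abat rose 1.29-fold, or by 0.36 ± 0.10 (standard error) in log2, at an adjusted p of 0.00931. It was 0.30 without TR replicate 1 (adjusted p = 0.0263) and 0.34 without NR replicate 3, where it no longer passed (adjusted p = 0.0558).

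Aldh5a1 encodes succinic semialdehyde dehydrogenase, the following step, which delivers succinate to the citrate cycle (chromosome 13, 24907579 to 24937661). It had 138, 119, 112 and 108 CPM in TR and 106, 108 and 123 CPM in NR samples. The groups overlapped, and the log2 difference of 0.08 ± 0.11 (standard error) had an adjusted p of 0.602. Its neighbour on the opposite strand, 4932702P03Rik, shares 17.7% of the exon bases of Aldh5a1.

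Slc12a5 encodes KCC2, the potassium-chloride exporter of mature neurons (chromosome 2, 164960802 to 164999731). Its level was 367, 391, 313 and 313 CPM in TR and 288, 256 and 271 CPM in NR samples, and the groups were apart. It was the sole gene of the 8 that peaked in TR replicate 2. Slc12a5 rose 1.27-fold, with a log2 difference of 0.35 ± 0.10 (standard error) and an adjusted p of 0.0121. The call was lost without TR replicate 2 (0.29, adjusted p = 0.0560), NR replicate 2 (0.31, adjusted p = 0.0758) or NR replicate 3 (0.35, adjusted p = 0.0501). An offset for the GC content of transcripts raised it to 0.48 (adjusted p = 0.00303).

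Slc12a2, on chromosome 18, encodes NKCC1, a sodium-potassium-chloride importer used by glia, choroid plexus and many other cells besides neurons. TR samples had 400, 332, 252 and 257 CPM and NR samples 244, 233 and 253 CPM. TR replicates 3 and 4 lay beside NR replicate 3, and TR replicates 1 and 2 lay above all others. The log2 difference was 0.34 ± 0.13 (standard error), at an adjusted p of 0.0462. It was 0.19 without TR replicate 1 (adjusted p = 0.177) and 0.17 with the GC content offset (adjusted p = 0.342), and the call was also lost without any of TR replicate 2 or NR replicates 1 to 3. The oligodendrocyte markers summed highest in the same TR replicates, at 3785 and 3650 CPM against 2302 to 2946 CPM in the other samples, and their part in this rise was not tested.

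The ratio of Slc12a5 to Slc12a2 counts was 0.916, 1.18, 1.24 and 1.22 in TR and 1.18, 1.10 and 1.07 in NR samples. TR replicate 1 was the sole sample with more Slc12a2 than Slc12a5 counts. Group means were 1.14 ± 0.15 (SD, n = 4) and 1.12 ± 0.058 (SD, n = 3), and per kilobase of exon they were 1.67 ± 0.22 and 1.64 ± 0.085. The mean log2 ratio differed by 0.02 between the groups, and by 0.12 without TR replicate 1. The GC content offset, by contrast, moved the fold changes of the pair apart, since the longest transcript of Slc12a5 is 58.3% G and C and that of Slc12a2 44.2%.

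**Figure D2:**
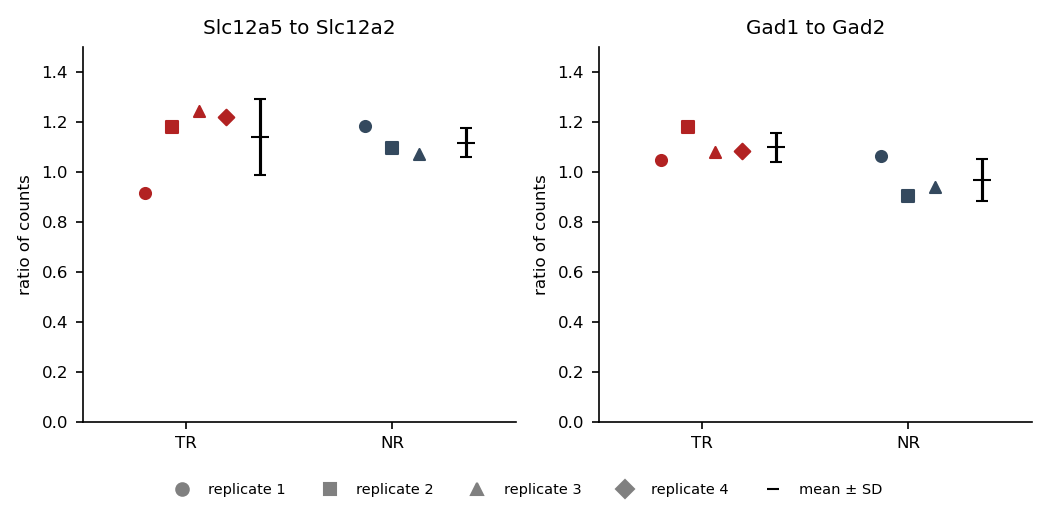
Ratio of counts within each sample (vertical axis, from 0) for Slc12a5 to Slc12a2 and for Gad1 to Gad2 in TR (red) and NR (dark) samples; symbols give the replicate number and bars mean ± SD (n = 4 and 3). The chloride transporter ratio is lowest in TR replicate 1, at 0.916, and the decarboxylase ratio of NR replicate 1, at 1.06, lies among the TR samples.

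**Figure D3:**
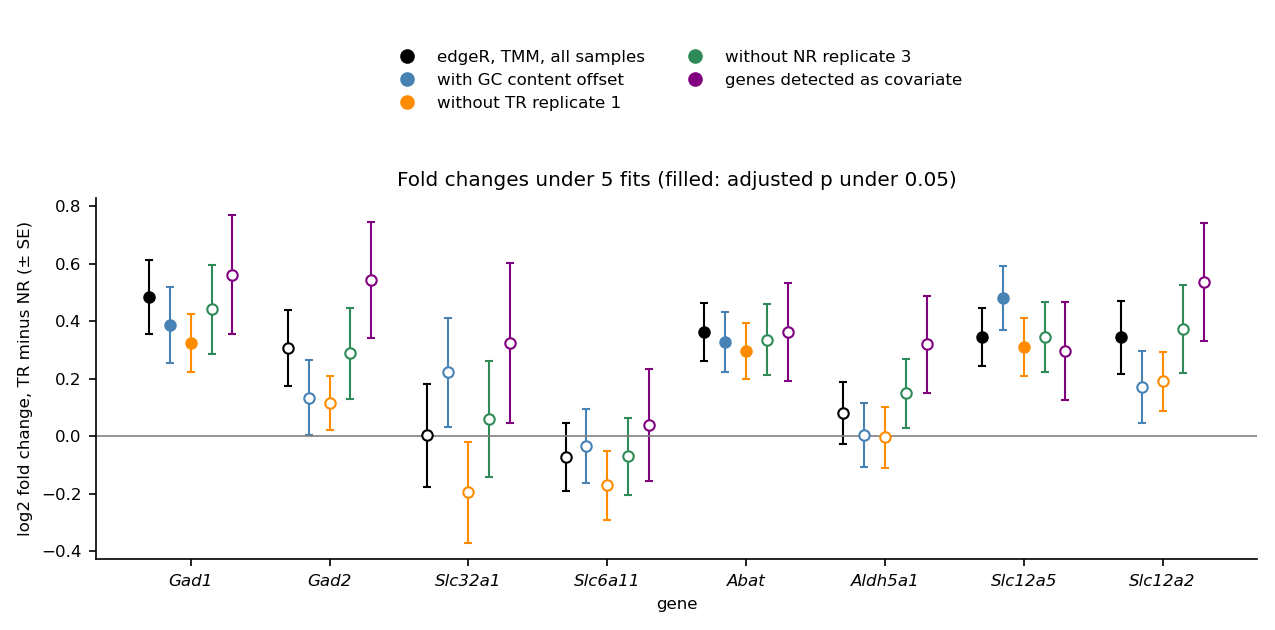
Log2 fold change of TR minus NR (vertical axis, ± standard error) for the 8 genes under 5 fits, with filled points where the adjusted p was under 0.05. Gad1, Abat and Slc12a5 keep their calls without TR replicate 1 and under the GC content offset, Slc12a2 loses the threshold in both, and no gene passes without NR replicate 3 or with genes detected as a covariate.

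TR replicate 1 had the highest level of the 7 samples for 7 of the 8 genes. For Abat its lead over TR replicate 2 was small (407 against 392 CPM), and Slc12a5 was highest in TR replicate 2. TR replicate 1 also had the lowest sum of glutamatergic markers (Slc17a6, Slc17a7 and Slc17a8), at 398 CPM against 523 to 612 CPM in the other samples. With it left out, the TR means were 480 CPM for Gad1, 429 CPM for Gad2, 30.5 CPM for Slc32a1, 70.1 CPM for Slc6a11 and 280 CPM for Slc12a2. Those of Abat, Aldh5a1 and Slc12a5 were then 347, 113 and 339 CPM.

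Divided by the length of all annotated exons of each gene, levels ran in nearly the same order in both groups. In NR samples Gad2 was highest with 67.0 ± 1.75 CPM per kilobase (SD, n = 3), followed by Gad1 with 49.9 ± 4.24. Slc12a5 and Abat came next at 36.5 ± 2.14 and 36.3 ± 1.25 CPM per kilobase, with overlapping ranges. Slc12a2 (22.3 ± 0.905) and Aldh5a1 (19.9 ± 1.59) also overlapped, and Slc6a11 (15.6 ± 0.370) and Slc32a1 (12.6 ± 1.46) were lowest. In TR samples the ranges of Gad2 (83.0 ± 20.4, SD, n = 4) and Gad1 (69.8 ± 15.3) overlapped, as did those of Slc6a11 (14.8 ± 1.93) and Slc32a1 (12.6 ± 3.52). Counts of Gad1 exceeded those of Gad2 in every TR sample, so Gad2 leads there only for these lengths. The length of Slc32a1 includes the 24.9% of exon bases it shares with Gm14205, so its place below Slc6a11 holds only for that length.

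Another 29 genes of the pathway, listed by role, were read from the same fit. Of these 27 passed the filter on low counts, 5 were higher and 5 lower in TR samples and 17 did not pass, with a median log2 fold change of 0.13. Over all genes tested, 15.1% were higher and 14.9% lower. With the GC content offset 5 passed, all of them lower (Akr7a5, Cab39l, Pdxk, Slc4a8 and Wnk2), and none of the 5 rises kept its call. Over all genes, 9.23% were called higher and 15.4% lower with that offset.

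Pdxk encodes the kinase that makes pyridoxal phosphate, the cofactor of the decarboxylases and of Abat, and was lower in TR samples at a log2 fold change of -0.35 (adjusted p = 0.0242). It shared 39.0% of its exon bases with other genes, chiefly on the opposite strand. Its call was lost without TR replicate 1 (-0.27, adjusted p = 0.0690), TR replicate 3 (-0.30, adjusted p = 0.0778), NR replicate 2 (-0.35, adjusted p = 0.0671) or NR replicate 3 (-0.34, adjusted p = 0.0673). Pdxp, which removes the phosphate, was at 0.03 (adjusted p = 0.848). It shared 45.1% of its exon bases with other genes, chiefly Gm49510 on the same strand. Zdhhc17, a palmitoyl transferase that acts on GAD65, was higher (0.30, adjusted p = 0.0313). That call was lost without TR replicate 1 (0.23, adjusted p = 0.0915), TR replicate 2 (0.26, adjusted p = 0.09996), NR replicate 2 (0.26, adjusted p = 0.132) or NR replicate 3 (0.28, adjusted p = 0.103). Gadl1, a decarboxylase-like enzyme, had 2 to 10 counts and was not tested.

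The GABA transporter genes Slc6a12 and Slc6a13 did not pass, on 4 to 15 and 10 to 26 counts. All TR samples exceeded all NR samples for Slc6a13, as they did for 17.2% of all genes tested.

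Akr7a5, a reductase that diverts succinic semialdehyde to gamma-hydroxybutyrate, had the largest fall of the 27 genes. TR samples had 22.0, 24.4, 15.7 and 22.3 CPM and NR samples 34.4, 45.5 and 46.8 CPM, without overlap. All TR samples lay below all NR samples for 2622 of the 14407 genes tested. The log2 fold change of Akr7a5 was -1.02 (adjusted p = 0.000358), and -0.79 with the GC content offset (adjusted p = 0.00320). Adhfe1 and Aldh9a1, which act on gamma-hydroxybutyrate and on a GABA precursor, did not pass (0.09 and 0.19).

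None of the 4 other cation-chloride cotransporters tested passed. Slc12a1 came nearest at a log2 fold change of 1.38 (adjusted p = 0.0548), on 4 to 13 counts. Slc12a3 was not tested, and Slc12a4, Slc12a7 and Slc12a9 lay between 0.13 and 0.47.

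Of 8 kinases and partners that control both chloride transporters by phosphorylation, 2 were higher, 1 lower and 5 did not pass. The shares over all genes tested were 15.1% higher and 14.9% lower. Wnk3 was higher, with 86.5, 77.6, 65.5 and 67.2 CPM in TR and 47.4, 59.7 and 50.0 CPM in NR samples (log2 fold change 0.49, adjusted p = 0.00863). Wnk2 was lower, with 51.5, 56.9, 71.3 and 80.7 CPM against 95.6, 101 and 114 CPM (-0.66, adjusted p = 0.000948). Neither gene overlapped between groups, which held for 2479 of the 14407 genes tested with TR higher and 2622 with TR lower. Cab39, the scaffold that activates the downstream kinases, was higher by 0.30 (adjusted p = 0.0196), whereas those kinases, Stk39 and Oxsr1, were at -0.04 and 0.12 and did not pass. Cab39 no longer passed without TR replicate 3 (0.28, adjusted p = 0.0592) or NR replicate 3 (0.26, adjusted p = 0.110).

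Chloride also follows bicarbonate. Slc4a10, a sodium-driven bicarbonate transporter of neurons, was higher in TR samples (0.48, adjusted p = 0.00210), as was carbonic anhydrase gene Car2 (0.32, adjusted p = 0.0381). The related exchangers Slc4a3 (-0.32, adjusted p = 0.0187) and Slc4a8 (-0.47, adjusted p = 0.00416) were lower. Car2 overlapped between groups, and its call was lost without TR replicate 1 (0.23, adjusted p = 0.120), TR replicate 2 (0.27, adjusted p = 0.132), NR replicate 2 (0.26, adjusted p = 0.185) or NR replicate 3 (0.33, adjusted p = 0.0978). Slc4a3 lost its call without TR replicate 2 (-0.28, adjusted p = 0.0629) or NR replicate 3 (-0.28, adjusted p = 0.0866). Car7 (-0.41, adjusted p = 0.144) and the chloride channel genes Clcn2 (-0.31, adjusted p = 0.103) and Clcn3 (0.20, adjusted p = 0.123) did not pass.

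**Figure D4:**
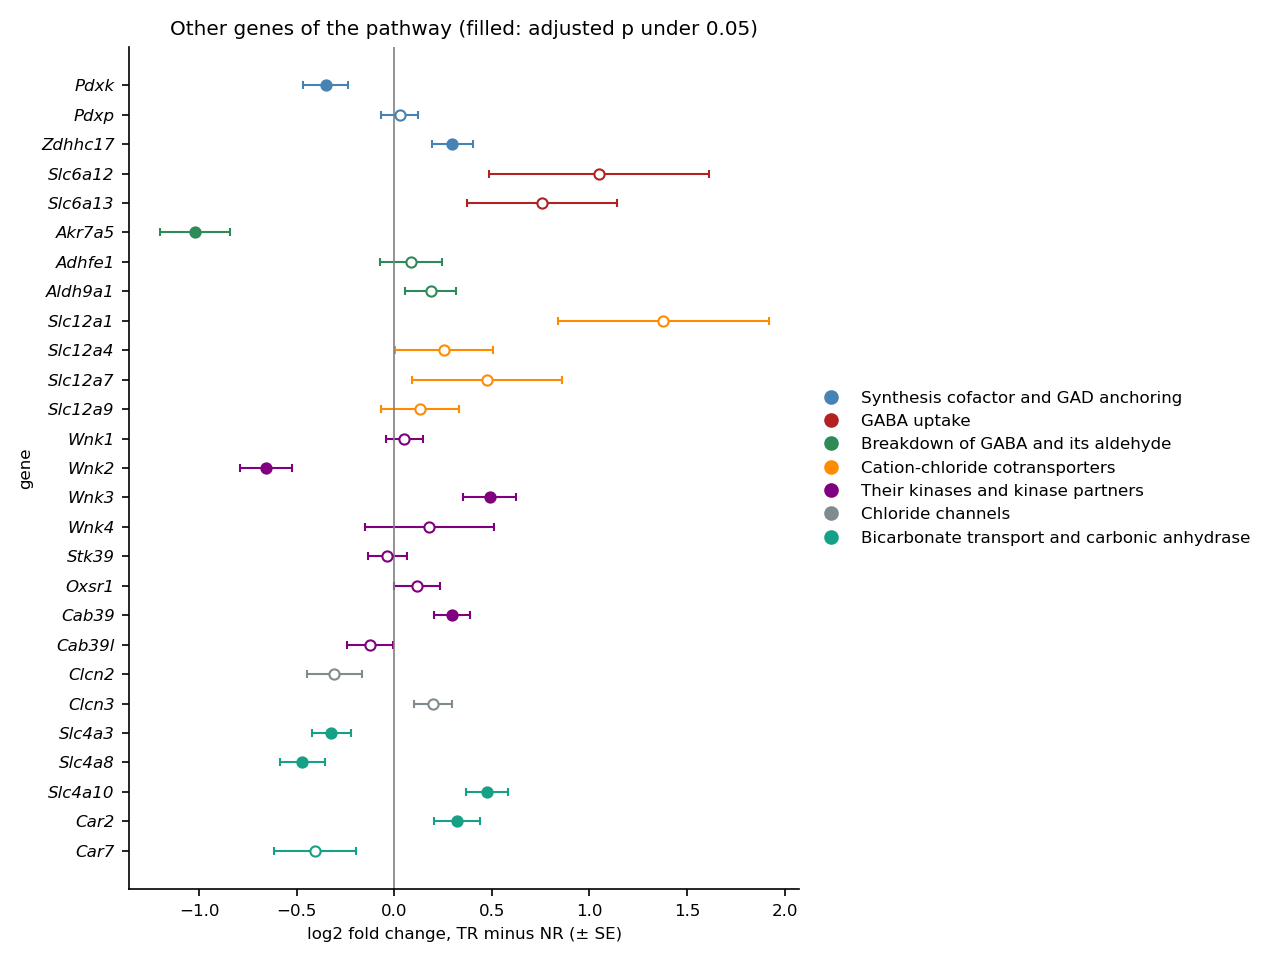
Log2 fold change of TR minus NR (horizontal axis, ± standard error) for the 27 other pathway genes that were tested, coloured by role, with filled points where the adjusted p was under 0.05. Filled points stand on both sides of 0, 5 above and 5 below, and Akr7a5 at -1.02 is the lowest.

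Patterns closest to those of Gad1, Slc6a11 and Slc12a5 were sought by the Euclidean distance of mean-centred log2 CPM over the 7 samples. Elovl5 (0.11), Serpini1 (0.11) and Adam23 (0.11) lay nearest to Gad1, and Acap2 (0.092), Aldoc (0.11) and Tpi1 (0.11) to Slc6a11. Nearest to Slc12a5 were Cntn1 (0.061), Rtn3 (0.082) and Tmx1 (0.090). Within the 8 genes, Abat was closest to Slc12a5 (0.15), and Gad1 was closer to Slc12a2 (0.28) than to Gad2 (0.32).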

How the data were processed

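The authors aligned reads to mm10 with STAR (2.6.0), removed duplicates with RmDup and deposited raw read counts per gene symbol from HTSeq (0.9.1). Annotation, strand setting and overlap rule were not given in the sources used here. Removing duplicates without molecular identifiers can lower highly expressed genes. Groups and replicate numbers came from the labels. The filter kept genes reaching 10 counts in 3 or more samples, and the test was that of edgeR 4.0.16 (robust quasi-likelihood, TMM, R 4.3.3), two-sided, Benjamini-Hochberg adjusted over 14407 genes, threshold 0.05. CPM values are TMM-scaled. DESeq2 1.42.0, limma 3.58.1, mgcv 1.9.3 (GC content offset), other normalizations and filters, downsampling, a covariate, a replicate block and omission of each sample were alternatives. Members, lists and tests were chosen with earlier results of these data known. A further 3 pathway genes, outside the 29, are not reported here. All 8 members, every called pathway gene and the 3 nearest patterns were named. Coordinates and exon lengths came from GENCODE M21 (94.5% of symbols found). The floor of 3 counts was 0.585 to 1.57 CPM on raw totals, without TMM scaling, counting error only. Samples within a group differed beyond counting noise (lowest chi-square ratio to its degrees of freedom 1.94).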

Additional observations from a re-analysis of the deposited data

How the results depend on the processing

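The count of the 8 genes past the threshold stayed within 1.5 times of 4 under most alternatives. It was 2 with all genes of at least 1 count and 0 with a covariate for genes detected, which left 1 of all genes past the threshold in place of 4327, and it ranged from 0 to 5 when each sample was left out (0 without NR replicate 3, 2 without TR replicate 2 or NR replicate 2). On leaving out samples, all genes past the threshold numbered 2620 (without NR replicate 3) to 4583. The other pathway genes, 10 in the report, numbered 0 with the covariate, 5 with the GC content offset, 6 when that offset was joined to the replicate block, and 5 to 11 on leaving out samples, fewest without NR replicate 3. The causes were not tested, beyond the loss of a sample.

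Gad1, Gad2, Abat, Slc12a5 and Slc12a2 were positive in all 20 alternatives, and passed in 18, 4, 18, 15 and 9. Signs near 0 turned. Slc32a1 was -0.014 with limma-voom, -0.051 with library size only and -0.086 with all genes of at least 1 count, and -0.19 to 0.11 on leaving out samples. It moved furthest upward, to 0.22 with the GC content offset, 0.27 with that offset and the replicate block, and 0.33 with the covariate. Slc32a1 passed in none of these. Slc6a11 was 0.038 with the covariate and 0.015 when the GC content offset was joined to the replicate block, and -0.17 to -0.03 on leaving out samples. Aldh5a1 was -0.010 with all genes of at least 1 count, 0.32 with the covariate, where it did not pass, and -0.0027 to 0.15 on leaving out samples. Of the genes called in either direction, 50.3% were higher, and 62.1% with upper quartile normalization and 37.4% with the GC content offset. With all genes of at least 1 count the median of all genes moved from 0.0071 to 0.17, and Gad1 was then at 0.39.

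Same-numbered samples share only a number: the correlations of their deviations from group means were -0.13, -0.06 and 0.03. With the replicate number as a block, 5 of the 8 genes passed, Gad2 included (0.36, adjusted p = 0.0168, edgeR), with 4124 of all genes and 12 pathway genes.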
